A study of Arabidopsis thaliana with 2 samples.

Results

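The ATG8 genes of Arabidopsis thaliana encode small ubiquitin-like proteins of autophagy. The 9 members were chosen by locus, as ATG8A to ATG8I, among 25412 genes that could be named on the array. Polysome loading was measured in T87 cells, a suspension cell line, harvested 8 days and 1 day after inoculation of fresh medium. No treatment or genetic change is stated for either day, and each day is represented by 1 biological sample on 1 array with 2 channels. RNA of the polysomal fractions of a sucrose gradient was set against RNA of the whole gradient, and the polysome ratio of a gene is read here as the share of its mRNA in polysomes. The labels are not of one mind on the dyes or on whether the other pool was total or nonpolysomal RNA, so the percents hold for the reading of polysomal over total. That direction was inferred from the values, and with the pools exchanged between the dyes every order of levels and every change given here would turn round.

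In autophagy, cytoplasm is enclosed in a double membrane and delivered to the vacuole for breakdown and reuse. Most ATG8 proteins are made as a precursor that the protease ATG4 trims. ATG8 is then activated by ATG7, passed to ATG3 and joined to the lipid phosphatidylethanolamine, with the ATG12-ATG5 conjugate and ATG16 promoting the last step. Lipid-bound ATG8 sits on the growing membrane and binds cargo receptors. In plants the pathway is known for recycling nutrients in starved and senescing cells. By sequence, ATG8A to ATG8D are closely related, as are ATG8E to ATG8G, while ATG8H and ATG8I form a more distant branch that resembles the animal proteins.

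With 1 array for each day there are no replicates, so no difference below has a replicate check, no p-value is given, and all values describe these 2 arrays. Each ATG8 gene was read by 1 spot of 1 probe. As a guide to error within an array, repeated spots of 23 gene probes had a median SD of 0.03 (log2 scale) on either day and 0.04 in the change. For 554 genes read by several probes, the median SD over probes was 0.33 for day 8 ratios, 0.14 for day 1 ratios and 0.30 for their difference. Probe sequences were not used here, so how far a probe of one ATG8 gene also binds the mRNA of a close relative was not tested. A ratio gives no mRNA level, so it does not show which ATG8 gene was most expressed.

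Spots without signal did not read 0. They lay at a value set by the array, with a median over the negative controls equal to 25.1% on day 8 against 53.8% on day 1, and a gene probe at that value was taken as without signal. Of the 25412 genes, 19618 had signal on both days. Chloroplast markers (7 of 7) and xylem markers (7 of 7) carried signal on both days. That call rests on the ratio alone, so it gives no level and does not by itself show presence. The polysome ratio of the median gene was 24.2% on day 8 against 36.0% on day 1. The change is day 8 minus day 1 on the log2 scale, and it was -0.52 for the median gene. The median of the negative controls changed by -1.10, and no change was taken from that base. Where 0 lies between the days is not settled, since the 10 spike-in probes (RNAs added in known amounts) had a median change of -0.29 and a range from -0.55 to 0.61. Changes are therefore given both as deposited and relative to the median gene.

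All 9 ATG8 genes had signal on day 1 and 8 had it on day 8. Over these 8 genes the median polysome ratio was 18.2% on day 8 against 33.0% on day 1, below the median gene on both days. On day 8 the ratios ran from 12.4% to 29.3%, a span of 2.37-fold, and on day 1 from 30.4% to 38.4%, a span of 1.26-fold. The family was thus close together on day 1 and more spread on day 8. As an interquartile range on the log2 scale, the spread of the 8 genes was 0.46 on day 8 against 0.14 on day 1. Among all genes the interquartile range also widened, to 1.00 on day 8 against 0.32 on day 1, and was wider than the family's on both days.

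**Figure D1:**
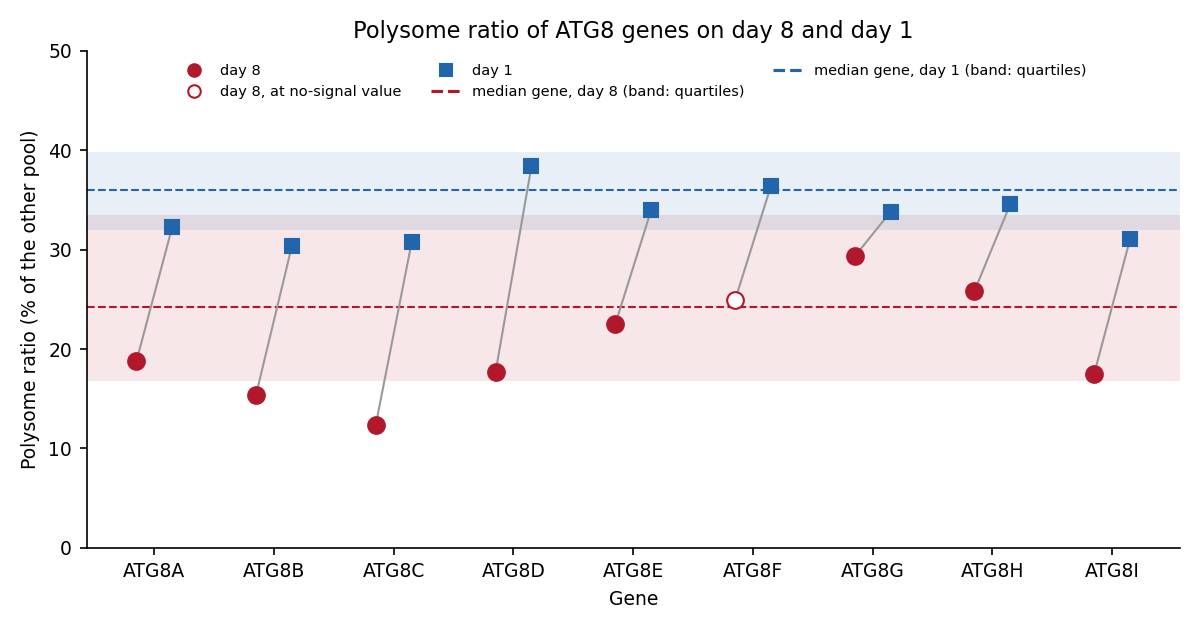
Polysome ratio in percent (vertical axis) of the 9 ATG8 genes (horizontal axis) on day 8 (circles) and day 1 (squares), 1 array each. Dashed lines give the median gene of each day and bands its quartiles. ATG8C is lowest on day 8 at 12.4% and ATG8G highest at 29.3%, and the open circle marks ATG8F, whose day 8 spot lay at the value of spots without signal.

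In the branch of ATG8A to ATG8D all 4 genes had lower ratios on day 8 than the median gene, as had ATG8E and ATG8I. By definition as many genes lie below the median gene as above it. ATG8A to ATG8D lay from percentile 12.8 to 31.5 of all genes on day 8. On day 1 ATG8A, ATG8B and ATG8C were already low, at percentiles 26.2, 19.1 and 20.2. ATG8A (AT4G21980) had 18.7% on day 8 against 32.3% on day 1, a change of -0.78. ATG8B (AT4G04620) had 15.4% on day 8 against 30.4% on day 1, a change of -0.98. ATG8C (AT1G62040) had 12.4% on day 8 against 30.8% on day 1, a change of -1.31. These 3 genes had similar day 1 ratios, and ATG8C had the lowest day 8 ratio and the lowest change of the family. ATG8D (AT2G05630) had 17.7% on day 8 against 38.4% on day 1, a change of -1.12. It was the member with the highest ratio on day 1, at percentile 66.5 of all genes, and lay at percentile 27.9 on day 8.

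In the branch of ATG8E to ATG8G the day 8 ratios were closer to those of day 1. ATG8E (AT2G45170) had 22.5% on day 8 against 34.0% on day 1, a change of -0.59. ATG8G (AT3G60640) had 29.3% on day 8 against 33.8% on day 1, a change of -0.21. ATG8G was the member with the highest day 8 ratio, at percentile 63.9 of all genes, against percentile 34.1 on day 1. ATG8F (AT4G16520) read 24.9% on day 8 against 36.4% on day 1, but its day 8 spot lay within 0.0035 on the log10 scale of the local value of spots without signal. Its day 8 ratio can therefore not be told apart from an absent signal. That value also lies near the median gene of day 8, so a probe with signal can fall on it. Taken at face value its change would be -0.55.

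The changes of the distant branch, ATG8H and ATG8I, lay 0.41 apart, where the SD between probes of a gene was 0.30. ATG8H (AT3G06420) had 25.8% on day 8 against 34.6% on day 1, a change of -0.42. ATG8I (AT3G15580), which RefSeq lists under the older symbol APG8H, had 17.5% on day 8 against 31.0% on day 1, a change of -0.83. In the order of changes of the genes with signal, ATG8I fell between ATG8A and ATG8B, and ATG8H between ATG8G and ATG8E. The gaps to these neighbours were all below that SD, so their order is not resolved. The day 8 spot of ATG8H also lay only 0.011 on the log10 scale from the no-signal value.

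In the order of day 8 levels, from high to low, the genes with signal were ATG8G, ATG8H, ATG8E, ATG8A, ATG8D, ATG8I, ATG8B and ATG8C. No neighbours in that order differed by more than the usual SD between probes of a gene on day 8 (0.33 on the log2 scale). The widest gap was 0.32, between ATG8B and ATG8C. The ends of the order, ATG8G and ATG8C, were 1.24 apart. On day 1 the order was ATG8D, ATG8H, ATG8E, ATG8G, ATG8A, ATG8I, ATG8C and ATG8B, and the 0.15 between ATG8D and ATG8H was the only gap between neighbours above the SD between probes of that day (0.14).

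As deposited, all 8 measured members were lower on day 8, where 81.3% of all genes were. At least 2-fold lower were 2 members, ATG8C and ATG8D, with ATG8B just short of it, where 25.7% of all genes passed that fold. No member was at least 2-fold higher, as were 1.21% of all genes. Among 8 genes these counts lie near the background.

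Relative to the median gene the family median was -0.28, with 6 of 8 members below it, where 50% of all genes are by construction. With features without signal kept it was -0.12, with 5 of 9 members below, and from the median spike-in it was -0.52. The members below were ATG8C (-0.79), ATG8D (-0.60), ATG8B (-0.46), ATG8I (-0.31), ATG8A (-0.26) and ATG8E (-0.07). ATG8H (0.10) and ATG8G (0.32) lay above. Measured from the median spike-in, 7 members were lower and 1, ATG8G (0.08), was higher, where 64% of all genes were lower. No member was 2-fold from the median gene in either direction, where 10.9% of all genes were at least 2-fold lower and 4.45% at least 2-fold higher. The lowest member, ATG8C, stood at percentile 15.6 of the changes of all genes and the highest, ATG8G, at percentile 69.2.

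The changes of ATG8A to ATG8D, from -1.31 to -0.78, did not overlap those of ATG8E and ATG8G, at -0.59 and -0.21. Among the changes of all genes these were percentiles 15.6 to 35.6 for ATG8A to ATG8D, and 45.9 and 69.2 for ATG8E and ATG8G. The nearest pair across that divide, ATG8A and ATG8E, differed by 0.19, less than the SD between probes of a gene (0.30). The ends, ATG8C and ATG8G, differed by 1.11. Of the distant branch, ATG8I (-0.83) lay within the range of ATG8A to ATG8D, and ATG8H (-0.42) between ATG8E and ATG8G. The division by branch was looked at after the values had been seen and has no test. Since all members were read on the same 2 arrays, their order in change does not depend on where 0 is set.

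**Figure D2:**
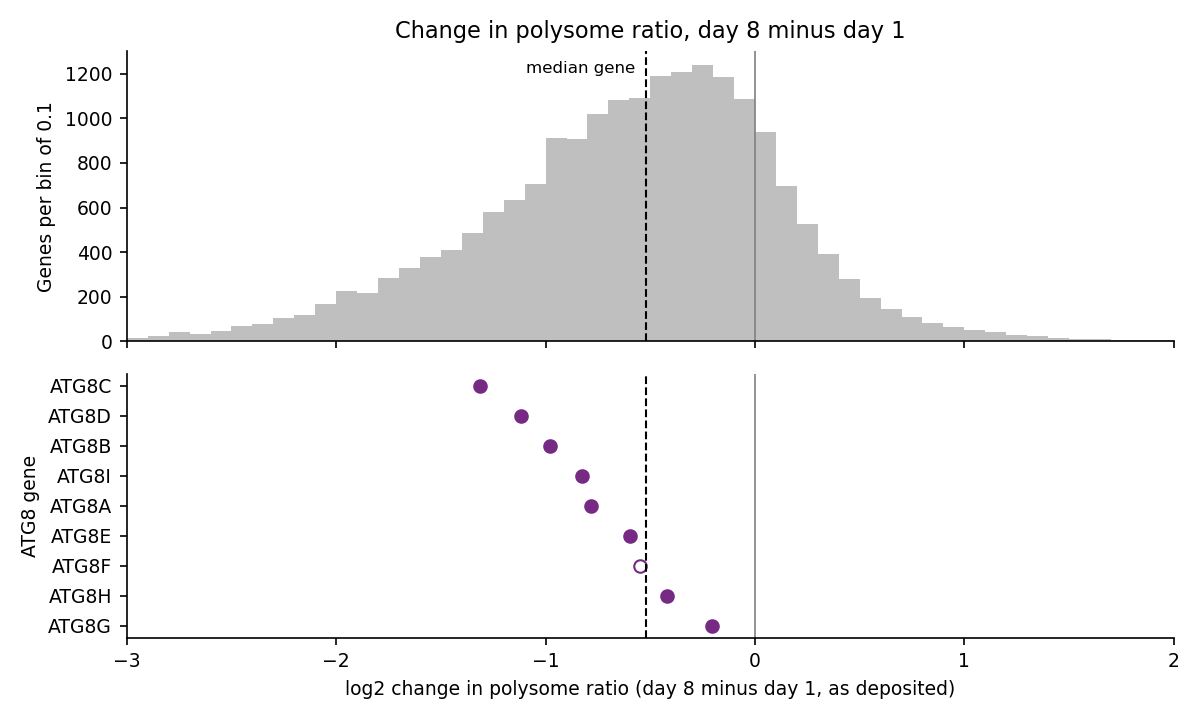
Top, number of genes per bin of 0.1 in the log2 change of polysome ratio (day 8 minus day 1, as deposited), with 115 of 19618 genes outside the axis. Bottom, the same axis with 1 point for each ATG8 gene, from ATG8C at -1.31 to ATG8G at -0.21; the dashed line is the median gene at -0.52, the solid line 0, and the open point ATG8F, without a signal call on day 8.

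How far a spot lies from the no-signal value bears on how its ratio can be read. On day 8 the 4 members with the highest ratios were also the nearest to that value. Over the members the local value ran only from 24.7% to 25.7%, so this nearness follows from the ratios. It is no separate measure of signal strength. ATG8H lay 0.011 above the no-signal value on the log10 scale, ATG8G 0.063 above it and ATG8E 0.044 below it, beside ATG8F. The other 5 lay from 0.132 (ATG8A) to 0.305 (ATG8C) below it. On day 1 every member lay at least 0.132 below, and there the distances of ATG8E to ATG8H, from 0.148 to 0.201, were within those of the other 5, from 0.132 (ATG8D) to 0.251 (ATG8B). Signals of single channels were not analysed here, and the part of weak signal in the day 8 differences was not tested.

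**Figure D3:**
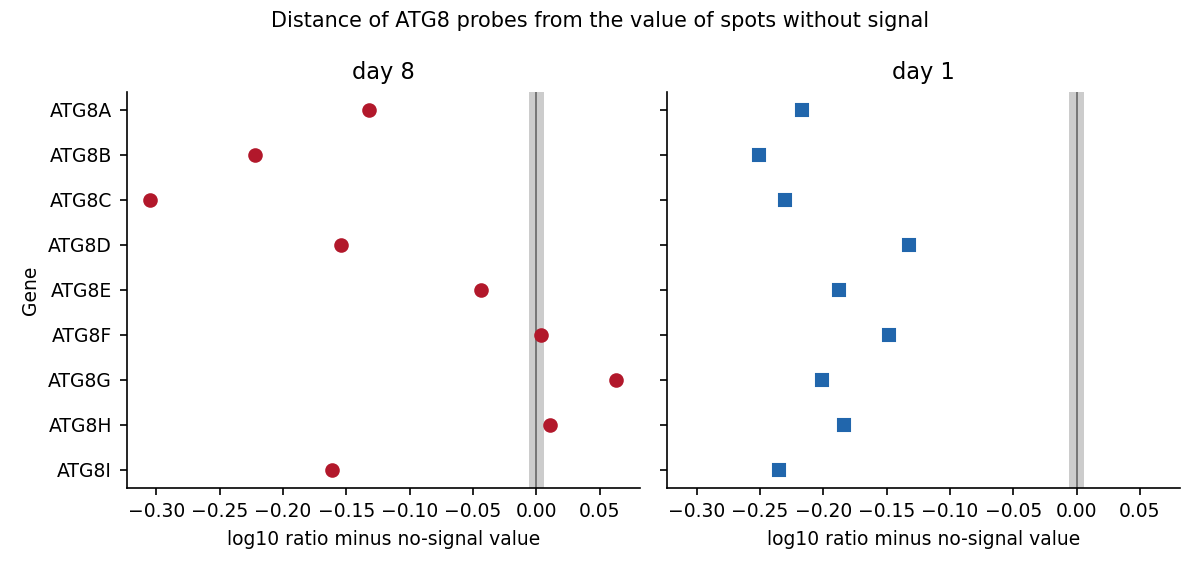
Distance of each ATG8 spot from the local value of spots without signal (log10 ratio minus that value), on day 8 (left) and day 1 (right). The grey band is the tolerance of 0.006 within which a spot was taken as without signal; only ATG8F on day 8 lies in it, with ATG8H next at 0.011.

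The proteins that process and conjugate ATG8 did not share 1 direction. Of the protease pair, ATG4A (AT2G44140) had 17.7% on day 8 against 43.1% on day 1, which is -0.76 relative to the median gene. ATG4B (AT3G59950) had 32.1% on day 8 against 34.0% on day 1, at 0.44. ATG4B was printed as 10 spots, which ran from 31.3% to 32.7% on day 8 and from 32.6% to 36.2% on day 1, so its as-deposited change was -0.08 ± 0.07 (SD over 10 spots on each array). The activating enzyme ATG7 had 40.9% on day 8 against 39.7% on day 1, which is 0.56 relative to the median gene. The conjugating enzyme ATG3 had 39.8% on day 8 against 37.6% on day 1, at 0.60. ATG7 and ATG3, the enzymes that carry ATG8, were thus above all 8 measured ATG8 genes on day 8.

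Of ATG5, ATG10, ATG12A, ATG12B and ATG16, only ATG16 lay above the median gene. ATG5, the protein to which ATG12 is joined, had 7.67% on day 8 against 30.5% on day 1, which is -1.47 relative to the median gene. ATG10, the conjugating enzyme for ATG12, had 13.1% on day 8 against 34.8% on day 1, at -0.89. The ubiquitin-like ATG12A had 11.3% on day 8 against 22.8% on day 1 (-0.49 relative to the median gene), and its sister ATG12B had 14.1% on day 8 against 27.9% on day 1 (-0.46). ATG16, which binds ATG5, had 27.7% on day 8 against 34.0% on day 1, at 0.22. Of these 9 processing and conjugation proteins, 4 lay above the median gene and 5 below it. As deposited, ATG5, ATG10, ATG4A and ATG12A were past 2-fold lower (4 of 9), where 25.7% of all genes were. The median of this list was -0.46 relative to the median gene, with members from -1.47 to 0.60.

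The upstream parts of the pathway lay mostly above the median gene. In the ATG1 kinase complex, which starts autophagy, 6 of 7 measured genes were above, with a list median of 0.53. The scaffold ATG11 had 64.9% on day 8 against 37.5% on day 1 (1.31 relative to the median gene), while the truncated kinase ATG1T had 15.8% on day 8 against 27.9% on day 1 (-0.30). The kinase gene ATG1C was read by 2 probes that disagreed, with as-deposited changes of 0.60 and -0.58, so its mean is uncertain. In the complex that makes phosphatidylinositol 3-phosphate, 4 of 6 genes were above, with a median of 0.45. The lipid kinase VPS34 had 55.1% on day 8 against 38.1% on day 1 (1.05), and VPS38 had 16.0% on day 8 against 30.4% on day 1 (-0.41).

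Of the membrane proteins and lipid binders ATG9, ATG2 and ATG18, 7 of 8 measured genes were above, with a median of 0.74. ATG18F, of the family that binds the product of VPS34, had 50.2% on day 8 against 26.0% on day 1 (1.47), and ATG18B had 23.3% on day 8 against 36.3% on day 1 (-0.12). Of the receptors that bind ATG8, 4 of 6 were above, with a median of 0.32. DSK2A, a ubiquitin-binding receptor, had 44.8% on day 8 against 36.6% on day 1 (0.81). ATI1, an ATG8-interacting protein, was the lowest of all listed autophagy genes with 6.52% on day 8 against 32.9% on day 1 (-1.81).

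Of the 40 listed autophagy genes outside the ATG8 family, 36 had signal on both days. ATG13B and TSPO had signal on day 1 only, ATG2 on day 8 only and ATG18E on neither. As for ATG8F, a missing call means only that the ratio lay at the no-signal value, and does not show absence. The ATG8 genes, 2 above the median gene and 6 below with a median of -0.28, can be set beside these 36. In the median the 36 had 29.2% on day 8 against 34.5% on day 1, and 25 lay above the median gene and 11 below, with a median of 0.49. As deposited, 0 ATG8 genes were higher on day 8 and 8 lower, against 17 higher and 19 lower among the 36. Of all genes 81.3% were lower, so the ATG8 count is the one near the background. These counts describe the lists, and the difference between them has no test.

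**Figure D4:**
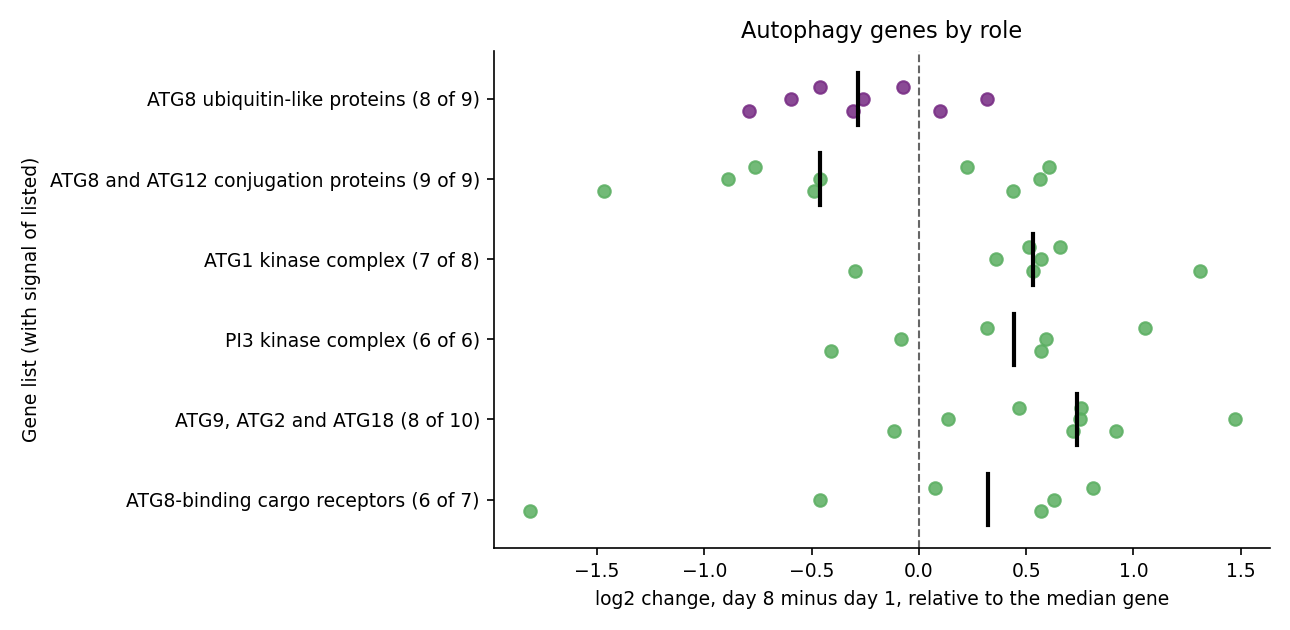
Log2 change in polysome ratio (day 8 minus day 1) relative to the median gene (dashed line at 0) for autophagy genes grouped by role. Each point is a gene with signal on both days and each bar the list median, from -0.46 for the conjugation proteins, ATG4 and ATG12 included, to 0.74 for ATG9, ATG2 and ATG18; the ATG8 genes (top) have -0.28.

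The deposited annotation describes 8 of the 9 ATG8 genes only as members of the ubiquitin-like superfamily, a description shared by 35 other genes. Against the family's median of -0.28 relative to the median gene and its range from -0.79 to 0.32, the others lay as follows. Of the 35, 19 had signal on both days, with a median ratio of 18.3% on day 8 against 32.4% on day 1. Relative to the median gene they had a median of -0.33, with 13 below and 6 above, from -1.64 to 1.33. The family's range lay within theirs.

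Among named genes outside the autophagy lists, those nearest to the family's median ratios of both days were CLE19, IQD25 and VAMP714, at a distance of 0.02 on the log2 scale over 2 arrays. VAMP714, a vesicle fusion protein of the SNARE class, had 18.4% on day 8 against 32.7% on day 1. As 395 genes lay within 0.1 of that point, a likeness of this kind is common on these arrays.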

How the data were processed

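The authors' deposited table gives a log10 polysome ratio for each of 39102 array features on each day, and their difference. The series' value table was identical to it. The step from scanner signals to ratios: not given in the sources used here. Per the labels' protocols, amplification was primed with oligo(dT) and the products carried Cy3 or Cy5.

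The labels disagree on which dye held the polysomal pool and, for the spike-in RNAs, call the other pool nonpolysomal. The ratio was read with the polysomal pool as numerator, for 2 reasons. On day 1 only 0.372% of genes lay above 100%, and 10 small nucleolar RNAs had medians of 2.23% (day 8) and 3.62% (day 1). These values cannot tell a total from a nonpolysomal denominator, so total RNA is a reading that was not tested. With a nonpolysomal denominator the percents would no longer be shares of the whole, while the order of genes would be kept; with the pools exchanged it would turn round. Log base 10 was inferred from the spacing of the spike-in probes. Values were multiplied to log2.

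The local no-signal value was the median over the 30 closest neighbours that lay no more than 0.04 from the median negative control, and features within 0.006 of it were left out. This took 26.9% (day 8) and 25.5% (day 1) of gene features, and 95.8% and 94.6% of the 757 negative controls. Of gene features, 26127 were named by 1 locus, 253 by RefSeq accession and 26 by symbol (assembly TAIR10.1), while 256 named several loci and 11023 were unassigned. Spots, then probes, were averaged on the log scale. The rule was also run on simulated data. Spots without signal were placed there on the surface that the rule had estimated from these arrays. Their recovery is therefore no independent check of the rule.

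Members and lists were chosen with earlier results of these data known. Named were all members, every conjugation protein, the highest and lowest gene of each other list and the 3 nearest named genes; ATG1C, whose probes disagreed, and genes without signal were added after their values were seen. Protein length was to be compared but was not analysed here. All per-sample columns were used. Python 3.11.15, numpy 2.4.6, pandas 2.3.3, scipy 1.17.1 and matplotlib 3.10.9 were used.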

Additional observations from a re-analysis of the deposited data

How the results depend on the processing

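Each of 10 alternatives was run on the family counts, the family median and each member. With features without signal kept, the median gene moved to -0.67, the family median was -0.12 relative to it over 9 members, and ATG8E stood at 0.073, on the other side of the median gene. With 0 at the median spike-in, the family median was -0.52 and ATG8H was at -0.13, below 0. From that base 1 member, ATG8C at -1.02, was at least 2-fold lower. The share of all genes past that fold from the same base was not computed, so this count has no background. When features were left out only if they lay at the no-signal value on both days, a choice made after seeing the data, ATG8F entered at 0.01 and the family median was -0.22. The number of members with signal was 9 with a tolerance of 0.003 and 7 with 0.012, where ATG8H was lost too. Across all 10 alternatives the family median stayed below 0, and ATG8A, ATG8B, ATG8C, ATG8D and ATG8I stayed below the median gene or the median spike-in. Using 15 or 60 neighbours, the median probe, probes that name several loci, or leaving out genes above 100% left every family value unchanged. Each member was read by 1 spot of 1 probe and lay below 100%. The median probe and the 100% limit could therefore act on it only through the median gene, and are no check of the member values. No paired analysis was possible because each day has 1 sample. The number of arrays limits the precision, and signal over background was not analysed here.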
